A study of Mus musculus with 36 samples.

Results

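The miR-297, miR-466, miR-467 and miR-669 families were examined in brain small RNA libraries of APP/PS1 and wild-type (WT) mice. Members were the miRNAs whose names start with mmu-miR-297, mmu-miR-466, mmu-miR-467 or mmu-miR-669 followed by a letter. The rule uses names and no measured value, but it was chosen with earlier results of these data known. Of 1411 miRNAs listed, 56 matched: 3 of miR-297, 24 of miR-466, 10 of miR-467 and 19 of miR-669. The libraries came from C57BL/6 mice in 4 groups of 3, namely APP/PS1 at 9 months, WT at 9 months, APP/PS1 at 6 months and WT at 6 months. APP/PS1 mice carry the APP695swe and PS1-dE9 transgenes, an Alzheimer's disease model, and WT mice carry neither. The mRNA of the same 4 groups was measured in 12 separate long RNA libraries. The labels name no promoter for the transgenes and do not state that replicates are different mice. The p-values therefore reflect library-to-library spread, which may be technical.

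Sfmbt2 encodes a polycomb group protein and is an imprinted gene, expressed from the paternal allele in the placenta and early embryo. A long intron of the mouse gene holds a large tandem array of miRNA hairpins that is shared with the rat and absent from the human gene. A mature miRNA pairs with target mRNAs mainly through its seed, the bases 2 to 8 from the 5′ end, and the array's hairpins carry GU and CA repeats, so that many members differ by few bases. In the RefSeq annotation of GRCm38.p6, 72 miRNA genes lie inside Sfmbt2, and all 72 belong to these 4 families. By hairpin name, 44 of the 56 members had every hairpin inside Sfmbt2. Another 4 (miR-297a-5p, miR-466f, miR-466f-3p and miR-466f-5p) had hairpins both inside and outside it, 6 had theirs on other chromosomes, and 2 (miR-466a-3p and miR-466a-5p) matched no hairpin by name. Members with every hairpin inside Sfmbt2 held 85548 of the 86036 reads of all 56, and those outside it held 123. These totals add up every name, also names listed with the same counts. With rows of equal counts taken once, all members held 44888 reads.

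The RefSeq table of mature miRNAs (GRCm38.p6) matched 5 of the 56 names, all 5 among the members outside Sfmbt2. They are shown for the repeats that the family names share, with the seed in capitals.
miR-466i-3p: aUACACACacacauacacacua
miR-466j: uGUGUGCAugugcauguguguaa
miR-466k: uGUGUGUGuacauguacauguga
miR-466q: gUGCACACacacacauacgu
miR-467h: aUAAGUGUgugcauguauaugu
These lie on the plus strand at chr13:17747552-17747573, chr10:60960802-60960824, chr3:85467396-85467418, chr3:28419988-28420007 and chr9:115381898-115381919, in the order printed. The 5 seeds all differ, so no pair of them forms a seed group. All 5 hold UGUGUG or CACACA, motifs that are each other's reverse complement and were searched on the RNA as printed; 40 of the 1679 mature mouse miRNAs in the table (2.38%) hold either. The 5 were rare, with 29, 2, 11, 16 and 1 reads in the 12 libraries together, in the order printed.

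Levels below are miRNA reads scaled to the library total (CPM), from libraries of 5082755 to 8595108 reads. Where a library lists 0 reads, a count of 3 reads sets a limit of 0.349 to 0.59 CPM, for counting error only. The brain-enriched miR-9-5p held 113800 to 135200 CPM and the neuronal miR-124-3p 1906 to 3431 CPM in the 12 libraries. The extraction text in the labels names retinas while the tissue label is brain. Summed CPM of the miR-183, miR-96 and miR-182 list, abundant in retina and other sensory tissue, was 145.3 to 189.5 in APP/PS1 at 9 months and 117.3 to 225.1 in WT at 9 months, and none of its 3 members was at 0 in any library. It was 144.8 to 25080 in APP/PS1 at 6 months and 448.8 to 3627 in WT at 6 months. In 4 libraries miR-183-5p exceeded 1000 CPM: APP/PS1 6 months 1 (8646) and 2 (1450), and WT 6 months 1 (1092) and 3 (1229). Leaving out these 4 leaves APP/PS1 library 3 and WT library 2 as the only 6-month libraries. Values given without the 4 therefore compare single libraries at 6 months and are descriptions with no replicate check.

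A single pattern of counts dominated the families. miR-467a-5p and miR-467b-5p were listed with the same counts in all 12 libraries, 40903 reads each, and ranked jointly 110th of 1411 by mean CPM. Counting each set of equal counts once, this row held 91.1% of the 44888 member reads. The other members were far rarer: miR-669c-5p came next at 718 reads, and 17 of the 56 had under 10 reads in all libraries together. Reads were found in every library for 24 members, and only the 2 rows of miR-467a-5p and miR-467b-5p averaged at least 100 reads a library. The 56 members together made up 0.1145% of miRNA reads on average, or 0.05976% with equal rows counted once.

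**Figure D1:**
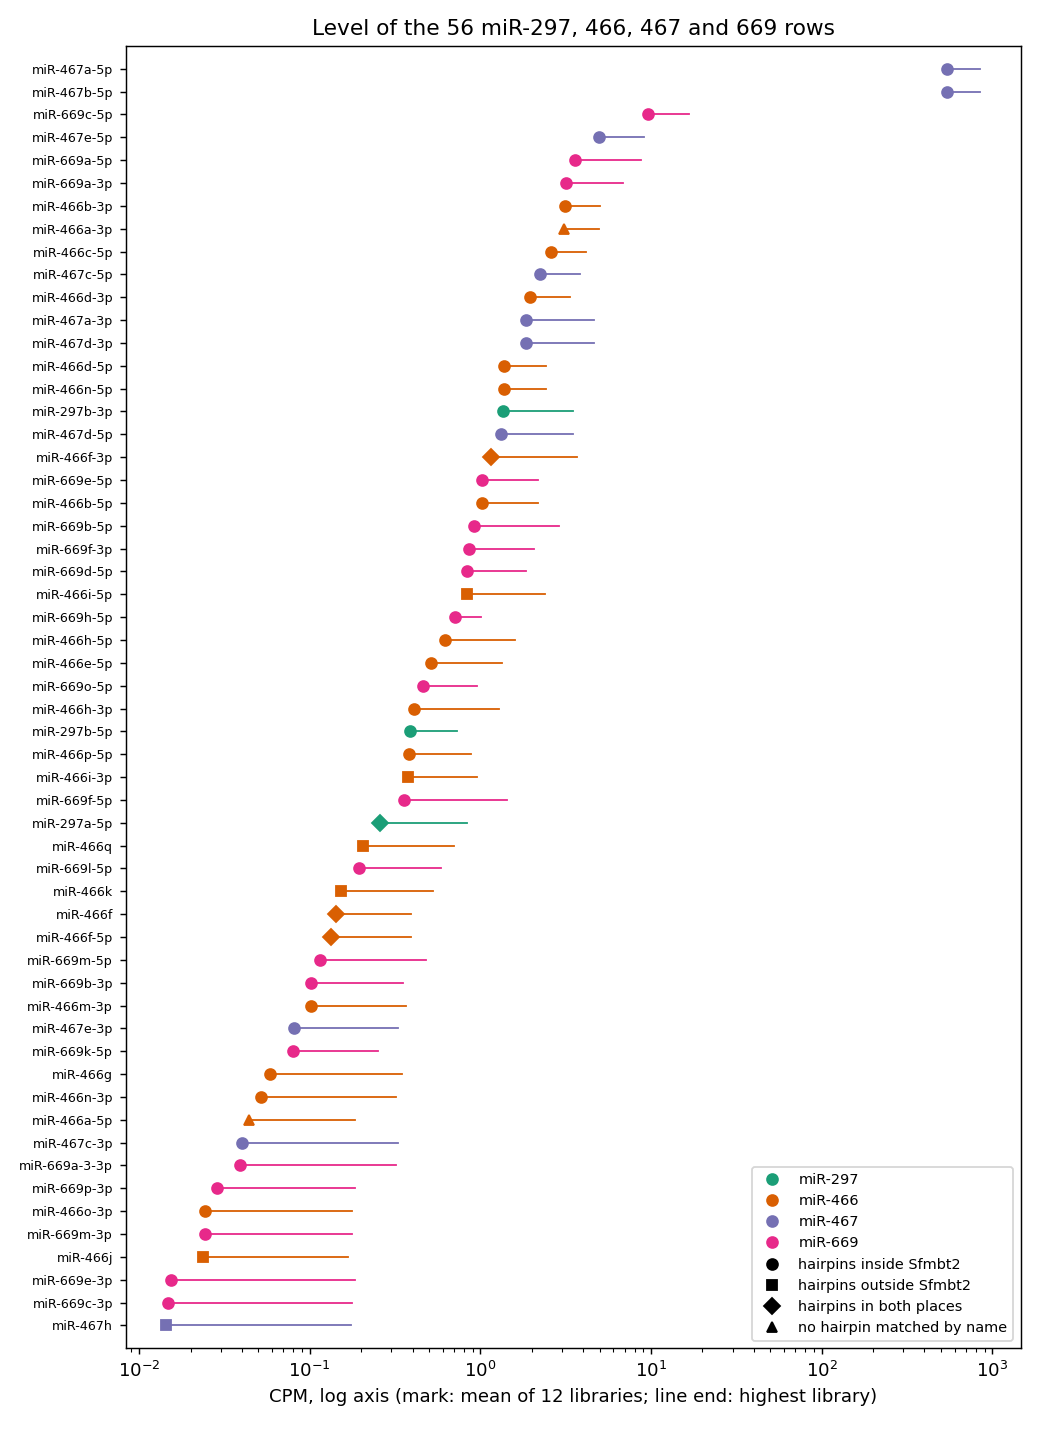
Mean CPM over 12 libraries (mark) and highest library (line end) of the 56 members on a log axis, coloured by family and shaped by where their hairpins lie. miR-467a-5p and miR-467b-5p share a value far right of the other members, and miR-669c-5p follows.

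There were 4 sets of members with counts equal in all 12 libraries, so that the table holds 52 separate patterns. Besides miR-467a-5p and miR-467b-5p these were miR-467a-3p and miR-467d-3p (13 reads each in APP/PS1 and 63 in WT at 6 months), miR-466d-5p and miR-466n-5p (101 each), and miR-466o-3p and miR-669m-3p (2 each). A nearly equal pair was miR-466a-3p and miR-466b-3p, with 233 and 236 reads, equal counts in 6 libraries and a summed gap of 7 reads. miR-466f and miR-466f-5p had 11 and 10 reads and differed in 1 library. Among miRNAs with at least 20 reads, 6 of 34 members shared all their counts with another row, while 14 of 764 rows in the whole table did (1.83%). The reads of such rows cannot be divided between names, and each set is counted below as 1 distinct member where said. The nearly equal miR-466a-3p and miR-466b-3p still count there as 2 distinct members, so the counts and medians of distinct members hold both. Several hairpins can also feed a name: RefSeq lists 10 hairpins named miR-467a, 8 named miR-466b and 12 named miR-669a inside Sfmbt2.

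The arms of a hairpin, called 5p and 3p, had unequal reads when compared by name. Of 18 names with both arms listed, 11 had more 5p reads and 7 more 3p reads. miR-467a had 288-fold more 5p than 3p reads, and miR-669c had 718 5p reads and 1 3p read. miR-466a had the opposite lean, with 3 5p reads and 233 3p reads, and miR-669a was close to even with 264 and 237. For miR-466d and miR-467d the 5p reads were 0.678 and 0.697 times the 3p reads. Several of these ratios rest on the rows of equal counts described above. The 3p row of miR-467d is also that of miR-467a, which had the opposite lean. The 5p row of miR-466d is also that of miR-466n, whose 5p reads were 25.2 times its 3p reads. For such names the lean of a hairpin cannot be told, and the counts of names by larger arm include them.

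The minimum on low counts was passed by 16 members, 13 of them distinct: 6 of miR-466, 7 of miR-467, 3 of miR-669 and none of miR-297. These 16 are the members with enough reads in enough libraries and are not all members. Of them 13 had 10 reads in at least 1 library of every group, and none reached 10 reads in 1 group alone. miR-467a-3p and miR-467d-3p lacked this in APP/PS1 at 6 months, with 2, 7 and 4 reads. miR-467d-5p lacked it in WT at 9 months, with 2, 6 and 9 reads. This count of raw reads is not the minimum itself, which was set on CPM. The 3 highest levels of miR-467d-5p were all at 6 months. They were 1.761 and 1.967 CPM in APP/PS1 libraries 2 and 3, and 3.508 CPM in WT library 1. At 9 months its highest level was 1.64 CPM, in APP/PS1 library 1. The 40 other members did not pass. miR-467d-5p passed at a mean of 1.314 CPM, while the highest that did not was miR-297b-3p at a mean of 1.356 CPM. Its libraries held 13, 2 and 7 reads in APP/PS1 at 9 months, 8, 4 and 9 in WT at 9 months, 5, 5 and 7 in APP/PS1 at 6 months and 22, 8 and 13 in WT at 6 months. APP/PS1 and WT overlapped at 9 months in reads and, scaled to CPM, at 6 months too. The other members of the family were scarcer, with 29 reads for miR-297b-5p and 21 for miR-297a-5p.

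APP/PS1 and WT brains were first compared at 6 months. The abundant miR-467a-5p read 483.8, 527.2 and 548.5 CPM in APP/PS1 libraries, against 843.9, 558.9 and 594.2 CPM in WT libraries. Every APP/PS1 library lay below every WT library, but WT library 1 stood far above the rest. Means were 519.8 ± 33.0 CPM in APP/PS1 and 665.6 ± 155.4 CPM in WT (SD, n = 3 each). The log2 difference was -0.38 ± 0.15 (SE), with an adjusted p of 0.656 (edgeR quasi-likelihood test, Benjamini-Hochberg over 560 miRNAs). It shrank to -0.11 without WT library 1 and was -0.02 between the 2 single libraries left at 6 months without those high in miR-183-5p. In bulk tissue, fewer cells of a type and less RNA per cell cannot be told apart.

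By name the opposite arm, miR-467a-3p, had a larger difference, though its reads cannot be assigned to the same hairpins. miR-467a-3p, identical to miR-467d-3p, read 0.366, 1.23 and 0.787 CPM in APP/PS1 libraries, against 4.63, 2.25 and 2.21 CPM in WT libraries at 6 months. The groups did not overlap, and the 3 APP/PS1 libraries were the lowest of all 12. These levels rest on 13 reads in APP/PS1 and 63 reads in WT, pooled levels of 0.801 (95% counting interval 0.427 to 1.37) and 2.93 CPM (2.25 to 3.74). The log2 difference was -1.90 ± 0.43 (SE), with an unadjusted p of 0.000942 and an adjusted p of 0.149 (edgeR quasi-likelihood test), and it did not pass the 0.05 threshold. It was -1.42 without WT library 1, and -1.48 between the 2 single libraries left without those high in miR-183-5p.

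**Figure D2:**
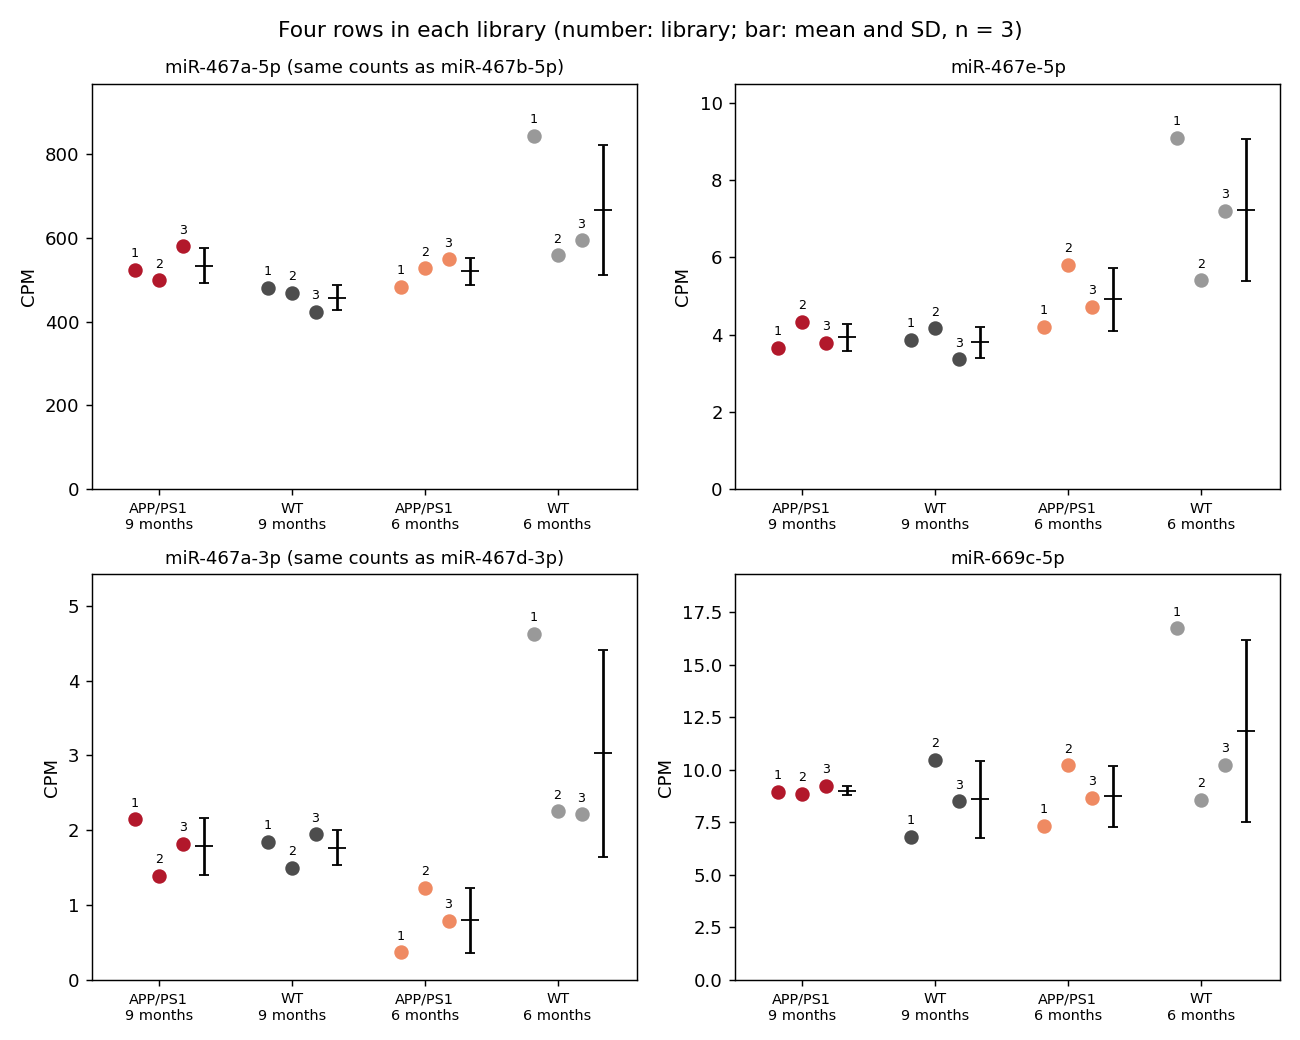
CPM of miR-467a-5p, miR-467e-5p, miR-467a-3p and miR-669c-5p in each library (numbered points) with group mean and SD (bars, n = 3), APP/PS1 left of WT at each age. WT 6 months library 1 is the highest point in each panel, and miR-467a-3p is lowest in APP/PS1 at 6 months.

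No member passed the test at 6 months, and all 16 tested members had a lower fitted level in APP/PS1 than in WT. The edgeR test called 0 of 560 miRNAs of any kind (percent called 0), and DESeq2 also called 0 miRNAs (0%). An unadjusted p under 0.05 was reached by 6 members, all lower and 4 of them distinct, while 4.46% of the 560 miRNAs were lower at that level. Groups did not overlap, with APP/PS1 lower, for 5 members (3 distinct) and with APP/PS1 higher for 0. Of all miRNAs tested, 5.71% were lower and 2.68% higher without overlap. The median log2 difference was -0.65 over the 13 distinct members and -0.01 over all 560. Among members of smallest p, miR-467e-5p averaged 4.92 ± 0.819 CPM in APP/PS1 and 7.24 ± 1.84 CPM in WT (SD, n = 3 each; log2 difference -0.58). miR-466c-5p averaged 2.09 ± 0.417 and 3.51 ± 0.584 CPM in APP/PS1 and WT (log2 difference -0.75). miR-669c-5p read 7.32, 10.2 and 8.66 CPM in APP/PS1, against 16.7, 8.56 and 10.2 CPM in WT, groups that overlapped.

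A large part of the size of this shared difference lay in 1 library. WT 6 months library 1 was the highest of the 12 for 11 of the 13 distinct tested members, whereas it was highest for 7.98% of all miRNAs with at least 20 reads. The summed CPM of distinct members other than miR-467a-5p was 42.65, 46.15 and 43.48 in APP/PS1 libraries, against 102.2, 47.73 and 63.52 in WT libraries at 6 months. Every APP/PS1 sum lay below every WT sum, narrowly for WT library 2. Without WT library 1, 11 of the 13 were lower, their median log2 difference was -0.33 and 1 distinct member had an unadjusted p under 0.05. Over all fits that left out a library that count ran to 7, reached without APP/PS1 6 months library 1, and it was 2 without APP/PS1 6 months library 2. Without WT library 1 the log2 differences of miR-467e-5p, miR-466c-5p and miR-669c-5p were -0.33, -0.56 and -0.07. Without the 4 libraries high in miR-183-5p, where APP/PS1 library 3 is set against WT library 2 alone, 10 of the 13 were lower and the median was -0.10. The same library had the highest summed level of the brain neuron list, 198600 CPM in a range of 161900 to 198600 CPM over the 12 libraries, and the highest miR-9-5p, at 135200 CPM. The neuronal miR-124-3p of that list was not highest there, at 2435 CPM in a range of 1906 to 3431 CPM. WT 6 months library 1 also had the lowest summed level of the choroid plexus list, at 795.4 CPM against up to 1792 CPM elsewhere. None of the 4 neuron and 5 choroid plexus markers was at 0 in all 12 libraries. The part of these markers in the result was not tested.

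The other members of high level had the same direction, with overlapping groups. miR-669a-5p averaged 2.87 ± 1.01 CPM in APP/PS1 and 4.74 ± 3.50 CPM in WT at 6 months, and miR-669a-3p 2.85 ± 1.38 and 4.24 ± 2.53 CPM in APP/PS1 and WT. miR-466b-3p averaged 2.31 ± 1.25 CPM in APP/PS1 and 3.64 ± 1.49 CPM in WT, and its near copy miR-466a-3p 2.31 ± 1.25 and 3.73 ± 1.58 CPM. miR-467c-5p averaged 2.17 ± 0.352 CPM in APP/PS1 and 2.90 ± 0.809 CPM in WT, and miR-466d-3p 1.45 ± 1.00 and 2.66 ± 0.699 CPM (SD, n = 3 each). None of these reached an unadjusted p under 0.05 at 6 months. By mean CPM over all 52 distinct members, tested or not, 40 were lower, 9 higher and 3 equal in APP/PS1. Of the 56 members, 17 had under 10 reads in all libraries together, so many of these directions rest on few reads. Counts of direction by mean CPM, here and in the comparisons below, were not made over all listed miRNAs. They were also not repeated with a library left out, such as WT 6 months library 1. Among all 560 miRNAs tested, 290 had a lower and 270 a higher fitted level in APP/PS1 at 6 months.

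At 9 months the members did not share a direction. miR-467a-5p read 523.4, 499.1 and 579.6 CPM in APP/PS1 libraries, against 480.8, 468.5 and 423.2 CPM in WT libraries. Every APP/PS1 library lay above every WT library, and means were 534.0 ± 41.27 CPM in APP/PS1 and 457.5 ± 30.32 CPM in WT (SD, n = 3 each). The log2 difference was 0.24 ± 0.15 (SE), with an adjusted p of 0.836 (edgeR quasi-likelihood test). No member was called by edgeR (percent called 0) or by DESeq2, which called 0.357% of all miRNAs, and 0 members had an unadjusted p under 0.05, while 2.5% of all miRNAs were higher and 2.86% lower at that level. Of the 13 distinct members, 9 were higher and 4 lower, with a median log2 difference of 0.08 against 0.01 over all 560. Without WT 9 months library 1 the balance turned, to 8 lower and 5 higher with a median of -0.06. miR-467a-5p was the only distinct member whose groups did not overlap, where 4.46% of all miRNAs were higher and 6.61% lower without overlap. Next by p, miR-669a-5p averaged 3.83 ± 1.19 CPM in APP/PS1 and 2.81 ± 0.592 CPM in WT, and miR-467c-5p 2.09 ± 0.313 and 1.74 ± 0.613 CPM in APP/PS1 and WT. miR-466b-3p averaged 2.98 ± 0.406 CPM in APP/PS1 and 3.54 ± 1.44 CPM in WT, and miR-669a-3p 2.53 ± 0.445 and 3.01 ± 0.785 CPM. These 4 overlapped between the groups. By mean CPM over all 52 distinct members, tested or not, 29 were lower, 21 higher and 2 equal in APP/PS1 at 9 months.

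**Figure D3:**
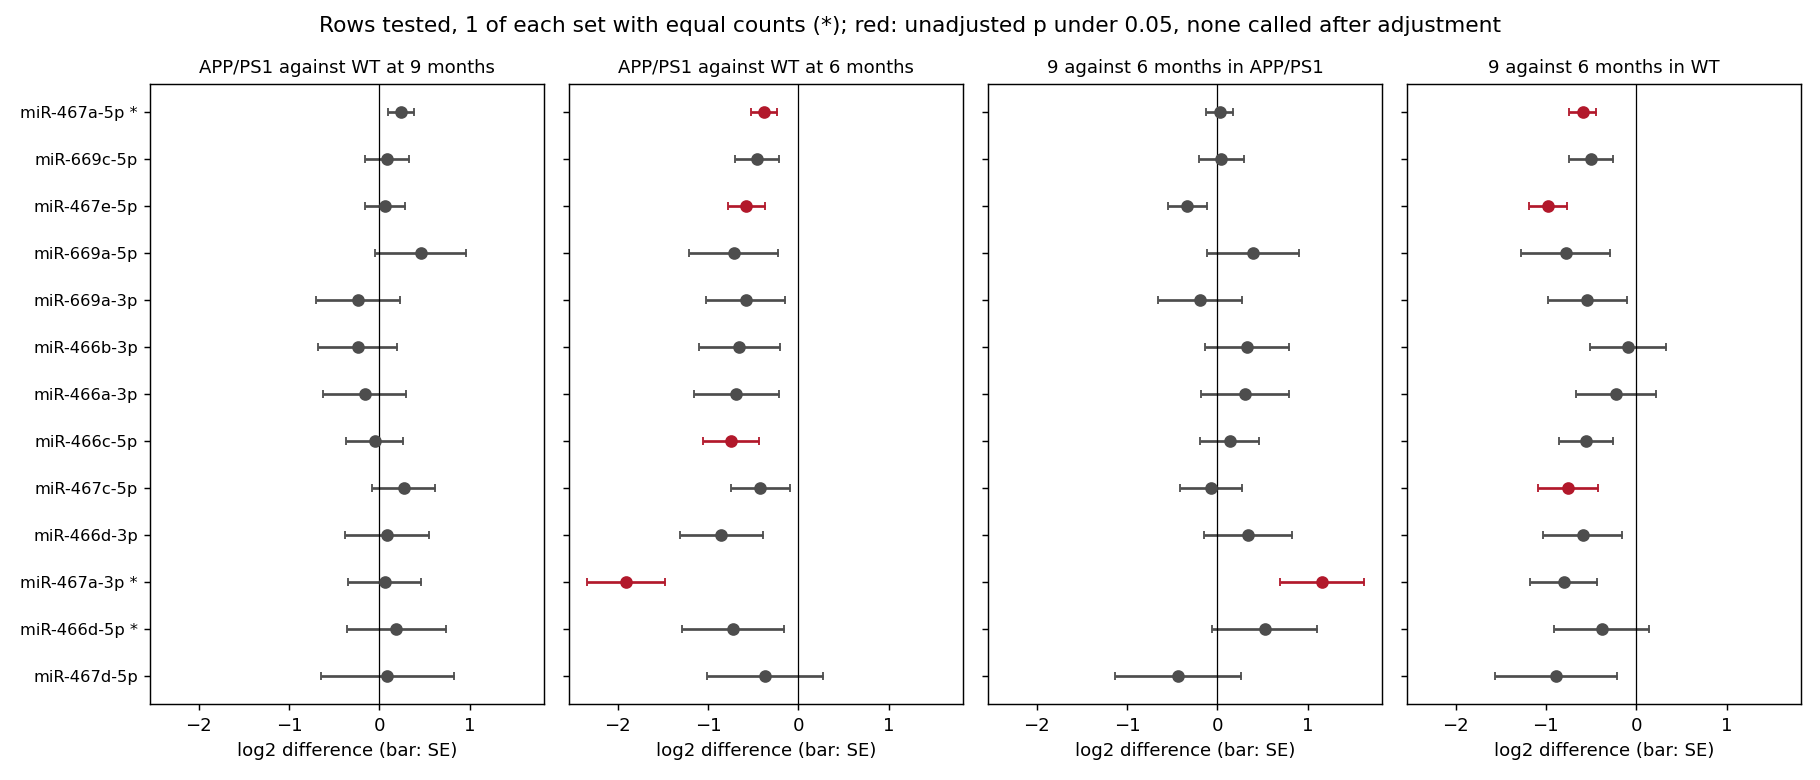
Log2 difference with SE of the 13 distinct members tested in 4 comparisons; a star marks a row that stands for others with equal counts, and red an unadjusted p under 0.05. Points lie left of 0 for APP/PS1 against WT at 6 months and for 9 against 6 months in WT, and on both sides in the other comparisons, with no member passing the adjusted threshold.

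The ages were then compared within each genotype. In WT, miR-467e-5p read 3.87, 4.16 and 3.36 CPM at 9 months, against 9.09, 5.40 and 7.21 CPM at 6 months. Every library at 9 months lay below every library at 6 months, and the log2 difference was -0.97 ± 0.21 (SE; edgeR quasi-likelihood adjusted p = 0.187). miR-467a-5p, from the WT values given above, differed by -0.59 ± 0.15 (SE; edgeR quasi-likelihood adjusted p = 0.187). All 16 tested members were lower at 9 months, and 4 (3 distinct) had an unadjusted p under 0.05, where 4.46% of all miRNAs were lower at that level. Groups did not overlap for 6 members (4 distinct), against 6.43% of all miRNAs lower and 8.39% higher without overlap, and the median log2 difference over distinct members was -0.59 against -0.00 over all 560. Also among the smallest p were miR-467c-5p (-0.76), miR-467a-3p (-0.80) and miR-669c-5p (-0.50), as log2 differences.

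These age differences in WT share the 6-month WT libraries with the genotype comparison above. edgeR called 0 members (percent called 0), whereas DESeq2 called the equal rows miR-467a-5p and miR-467b-5p, with a log2 difference of -0.59 and an adjusted p of 0.00797, among 15 of 560 miRNAs (2.68%) it called in this comparison. Without WT 6 months library 1, 9 of the 13 distinct members were lower at 9 months, the median was -0.33, and miR-467a-5p differed by -0.33 and miR-467e-5p by -0.73. The log2 differences of miR-467c-5p, miR-467a-3p and miR-669c-5p were then -0.47, -0.34 and -0.12. miR-467c-5p was also lower in size, at -0.48, without WT 9 months library 1, and miR-669c-5p was -0.32 there. An unadjusted p under 0.05 was reached by 2 to 5 distinct members when a library was left out, 5 of them without WT 6 months library 2 or 3. Without the 4 libraries high in miR-183-5p, where WT library 2 alone stands for 6 months, 8 of the 13 were lower and the median was -0.12. By mean CPM, 36 of the 52 distinct members were lower, 15 higher and 1 equal at 9 months. This count includes WT 6 months library 1 and was not made without it or over all listed miRNAs.

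In APP/PS1, members differed between the ages in both directions. The median log2 difference of 9 against 6 months was 0.14 over the distinct members and 0.02 over all 560, and 9 of the 13 were higher at 9 months. The median was -0.005 without APP/PS1 6 months library 3, with 7 lower and 6 higher, and 0.29 without library 1 of that group. It was 0.06 without APP/PS1 9 months library 2 and 0.02 without library 3 of that group. By mean CPM over all 52 distinct members, tested or not, 23 were lower, 23 higher and 6 equal at 9 months. The smallest p was that of miR-467a-3p, which read 2.15, 1.39 and 1.81 CPM at 9 months, against 0.366, 1.23 and 0.787 CPM at 6 months. The groups did not overlap, and 7.32% of all miRNAs were higher and 2.68% lower without overlap. Its log2 difference was 1.16 ± 0.46 (SE), with an unadjusted p of 0.029 and an adjusted p of 0.510 (edgeR quasi-likelihood test). No member was called by edgeR (percent called 0) or DESeq2, which called 2.5% of all miRNAs. An unadjusted p under 0.05 was reached by 2 members (1 distinct), both higher, against 4.46% of all miRNAs higher and 3.39% lower at that level. Next by p, with overlapping groups, miR-467e-5p averaged 3.93 ± 0.358 CPM at 9 months and 4.92 ± 0.819 CPM at 6 months. miR-466d-5p, equal to miR-466n-5p, averaged 1.501 ± 0.850 CPM at 9 months and 1.015 ± 0.825 CPM at 6 months, miR-669a-5p 3.83 ± 1.19 and 2.87 ± 1.01 CPM, and miR-466d-3p 1.91 ± 0.502 and 1.45 ± 1.00 CPM.

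Whether the genotype difference itself changed with age was tested as an interaction, the log2 difference at 9 months minus that at 6 months. No member was called by edgeR or DESeq2 (percent called 0 for both), and all 16 tested members were on the higher side. An unadjusted p under 0.05 was reached by 4 members (2 distinct), against 4.46% of all miRNAs on that side and 1.79% on the other. The interaction was 1.96 ± 0.59 (SE) for miR-467a-3p and 0.62 ± 0.21 (SE) for miR-467a-5p, each with an adjusted p of 0.535 (edgeR quasi-likelihood test). It was 0.64 for miR-467e-5p, 1.17 for miR-669a-5p and 0.54 for miR-669c-5p. Without WT 6 months library 1 these 5 interactions were 1.46, 0.33, 0.37, 0.32 and 0.14, in the order given. That of miR-669c-5p was 0.33 without WT 9 months library 1. The median over distinct members was 0.64, and 0.33 without WT 6 months library 1, when 11 of 13 stayed above 0.

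The host gene was measured in the long RNA libraries as FPKM, fragments scaled to transcript length and depth, summed over transcripts. Sfmbt2 mRNA read 0.925, 0.748 and 0.896 FPKM in APP/PS1, against 0.994, 1.165 and 0.957 FPKM in WT at 9 months. Every APP/PS1 library lay below every WT library, by a narrow margin. The share of all genes whose groups separated in this way was not counted. At 6 months Sfmbt2 read 0.633, 1.148 and 0.933 FPKM in APP/PS1, against 1.30, 1.035 and 1.053 FPKM in WT, groups that overlapped. Means were 0.856 ± 0.0947 and 1.039 ± 0.111 FPKM in APP/PS1 and WT at 9 months, and 0.905 ± 0.259 and 1.129 ± 0.148 FPKM in APP/PS1 and WT at 6 months (SD, n = 3 each). Of its 5 listed transcripts, 2 were at 0 in every library.

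No Sfmbt2 difference passed the limma test over 13593 genes. On the log2(FPKM + 0.25) scale the difference of APP/PS1 from WT was -0.22 ± 0.17 (SE; limma adjusted p = 0.727) at 9 months, where 0.0956% of genes were called. At 6 months it was -0.28 ± 0.17 (SE; limma adjusted p = 0.553), where 0.0441% of genes were called, and it ran between -0.43 (without APP/PS1 library 2) and -0.10 (without APP/PS1 library 1) when a library was left out. Without WT library 1 it was -0.19. Between 9 and 6 months it was -0.04 in APP/PS1 (percent called 0) and -0.10 in WT (0.0441% called), with an interaction of 0.06 (0.00736% called). The age difference in WT was -0.01 without WT 6 months library 1. The labels do not tie a small RNA library to a long RNA library, so the levels of Sfmbt2 and of its miRNAs were not paired by sample.

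**Figure D4:**
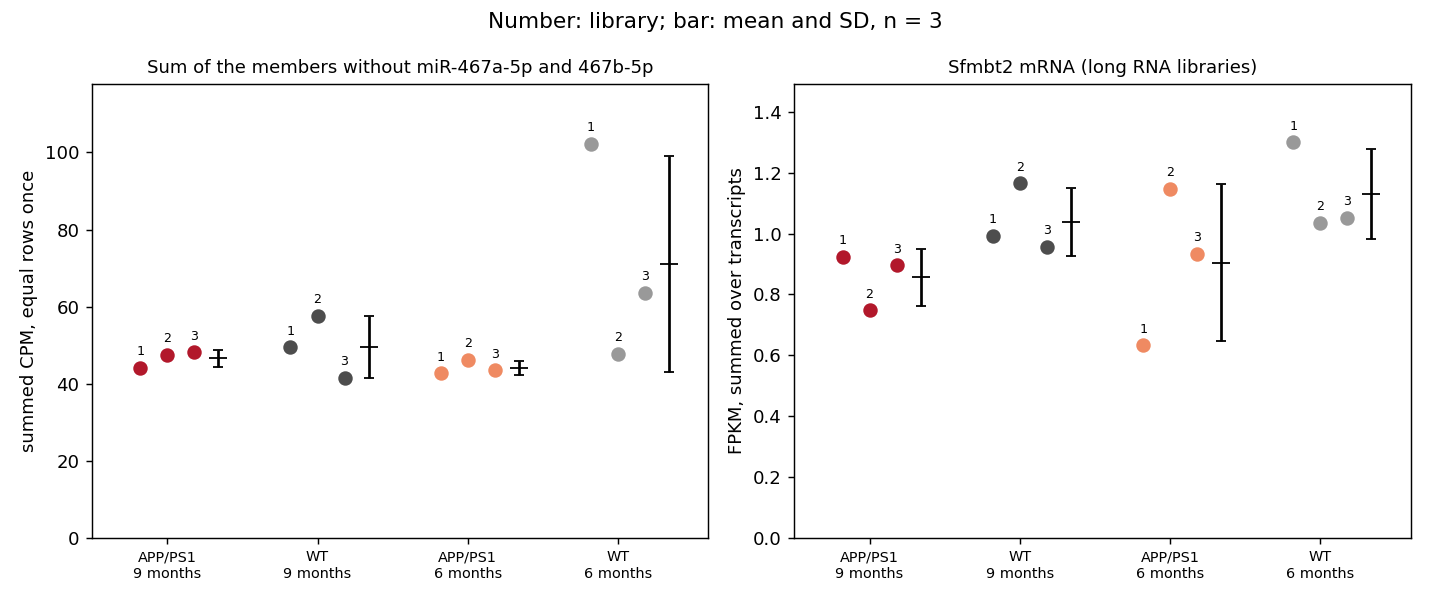
Left, summed CPM of the distinct members without miR-467a-5p and miR-467b-5p; right, Sfmbt2 FPKM, in each library (numbered points) with group mean and SD (n = 3), APP/PS1 left of WT at each age. WT 6 months library 1 reaches 102.2 CPM on the left, and Sfmbt2 lies at or below 1.30 FPKM throughout.

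Genes of the miRNA pathway were then read from the same long RNA libraries, from a list of processing and silencing factors. Of the 22 gene IDs tested, limma called 0 in each of the 5 comparisons, with an unadjusted p under 0.05 for 4 (9 months), 2 (6 months), 1 (age in APP/PS1), 2 (age in WT) and 3 (interaction). The shares of all 13593 genes at that level were 9.73%, 11.7%, 13.1%, 10.3% and 11.3%, in the same order. Dicer1, the RNase that cuts the hairpin loop, differed by 0.12 between APP/PS1 and WT at 9 months and by 0.00 at 6 months (log2 scale). Drosha, which releases hairpins from the primary transcript, differed by -0.02 at 9 months and 0.06 at 6 months. Ago2, the slicing Argonaute that holds the mature strand, averaged 18.67 FPKM over the 12 libraries and differed by -0.12 at 9 months (limma adjusted p = 0.468) and by -0.05 at 6 months. Dgcr8, which binds hairpins beside Drosha, was listed under 2 gene IDs, and the ID with zeros in some libraries gave part of these unadjusted counts.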

How the data were processed

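Per the file headers, the authors deposited read counts per miRNA, CPM (headed as a per-million value and equal to the counts over the library total within 4.95e-10) and FPKM per transcript. The submitters' processing notes name Bowtie 0.12.2 and mm8, with no role; trimming, mismatch and multi-mapping settings are not stated there or in the labels, so reads of near-identical members may be counted under several names or one. The miRNA libraries held 5082755 to 8595108 reads. Deposited counts were tested with edgeR 4.0.16 (R 4.3.3; TMM scaling, filterByExpr, glmQLFit and glmQLFTest on the 4 groups) over 560 miRNAs, and summed FPKM with limma 3.58.1 on log2(FPKM + 0.25) for genes averaging at least 0.5 FPKM. Benjamini-Hochberg adjustment used a threshold of 0.05. DESeq2 1.42.0 and other scalings, filters and left-out libraries were alternatives. The scripts were tested on simulated data. Named members were those called, the 12 of highest mean CPM, the 5 of smallest p in each comparison and all rows of equal counts. Members and lists were chosen with earlier results of these data known. Replicate libraries differed beyond sampling noise, with chi-square per degree of freedom of 27.6 to 664. The lncRNA and circRNA tables were not used here. Counting intervals cover counting error only, since reads carry no stated molecular identifiers.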

Additional observations from a re-analysis of the deposited data

How the results depend on the processing

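The count of members called stayed 0 in 101 comparisons refitted under an alternative and moved in 3. Without a filter on low counts edgeR called 3 members at 6 months (miR-467a-3p and miR-467d-3p at -1.92, adjusted p = 0.00222, and miR-466i-5p at -2.31, adjusted p = 0.0371, the last named after its values were seen) and 3 for age in WT (miR-467a-5p and miR-467b-5p at -0.59, adjusted p = 0.00243, and miR-467e-5p at -0.97, adjusted p = 0.0170); all miRNAs called then numbered 27 and 30 of 1411. The hairpin of miR-466i-5p lies outside Sfmbt2, on chromosome 13, and this member held 64 reads in all. DESeq2 called 2 members for age in WT, among 15 of 560 miRNAs. Leaving out each library in turn gave 0 to 0 called members in each of the 5 comparisons; the smallest adjusted p was 0.0548, for age in WT. Without the 4 libraries high in miR-183-5p, an alternative chosen after seeing the data that leaves 1 library in each 6-month group, so that the lone library is assumed to vary like the other groups, log2 differences reversed for miR-669c-5p at 6 months (0.0278) and for age in WT (0.0015), and for miR-466d-5p (-0.46) and miR-669a-5p (-0.0718) for age in APP/PS1. Leaving out libraries gave -0.0019 to 0.52 for miR-467c-5p and -0.48 to 0.083 for miR-466b-3p at 9 months, and -0.085 to 0.94 for miR-466d-3p for age in APP/PS1. For Sfmbt2 it gave -0.22 to 0.11 for age in APP/PS1, -0.12 to 0.21 for the interaction, -0.43 to -0.10 at 6 months, -0.27 to -0.15 at 9 months and -0.17 to -0.01 for age in WT, with no call. The labels do not say whether libraries of the same replicate number are paired. Same-number correlations of deviations from group means ran from -0.59 to 0.457 for miRNA, and with 3 libraries a group they cannot settle it. The replicate block gave 0 called members in each comparison. The fit on only the groups compared gave no interaction. Counting error limits most members: only 2 averaged at least 100 reads.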
